A study of Mus musculus with 17 samples.

Results

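The genes described here are Lin28a, Lin28b, Sall4, Igf2bp1, Igf2bp2, Igf2bp3, Hmga2 and Prtg, 8 of the 24015 genes listed for each library, taken by their symbols. They are known for high activity in the embryo and in some tumours, and for low activity in most adult tissues. Lin28a and Prtg were chosen by their measured rise in XEN medium over ESC medium in these same libraries, so every value of theirs that uses XEN-medium libraries is given as a description without a test. Their ESC-medium libraries were the other side of that choice, so tests of Lin28a and Prtg there are not independent of it. The study used factors called OSKM (Oct4, Sox2, Klf4 and Myc) to induce extraembryonic endoderm stem cells, named iXEN, and set them beside XEN cell lines and mouse embryonic fibroblasts (MEF). All cells were of the CD-1 background. MEF had been grown for 3 passages in MEF medium and gave 3 libraries. XEN and iXEN cells had spent 10 passages in ESC medium, followed by 5 more in either ESC medium (3 XEN and 4 iXEN libraries) or XEN medium (3 XEN and 4 iXEN libraries). Cell type, medium and passage number therefore differ together between MEF and every other group and cannot be told apart. Each library is called by its cells, its medium and its label's number (1, 2 and 7 for XEN, 1, 2, 6 and 9 for iXEN), and the labels do not say whether a number is a separate line or clone.

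LIN28A and LIN28B are RNA-binding proteins that block the maturation of the let-7 family of microRNAs, and mature let-7 in turn represses mRNAs that carry its seed match in their 3′ untranslated region (UTR). Among the best known let-7 targets are Lin28a and Lin28b themselves, the chromatin protein gene Hmga2 and the genes of the IGF2 mRNA-binding proteins, Igf2bp1 to Igf2bp3. SALL4 is a zinc-finger transcription factor of pluripotent cells and of extraembryonic endoderm, the lineage that lines the yolk sac and from which XEN cells are grown. PRTG, protogenin, is a cell-surface receptor of the immunoglobulin superfamily expressed in the early embryo.

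The sequences that tie the group together are the let-7 seed and its matches. The mature mouse let-7 microRNAs and miR-98 given by RefSeq (GRCm38.p6) share 1 seed, bases 2 to 8 from the 5′ end, shown in capitals for 3 of the 9 let-7 and miR-98 guide strands.
mmu-let-7a-5p: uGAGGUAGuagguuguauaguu
mmu-let-7g-5p: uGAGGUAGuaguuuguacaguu
mmu-miR-98-5p: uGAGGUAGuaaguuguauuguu
LIN28 binding has been mapped to a GGAG motif in the terminal loop of let-7 precursors. The let-7g hairpin of RefSeq, on the plus strand of chr9:106178840-106178927 (GRCm38.p6), carries it at bases 56 to 59, in capitals below, and 8 of 11 let-7 hairpins with both arms annotated had the motif between the arms, against 8.07% of the 644 mouse hairpins that could be read this way.
Mirlet7g: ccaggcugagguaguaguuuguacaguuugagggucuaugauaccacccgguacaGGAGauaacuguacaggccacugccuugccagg

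The complement of the seed, CTACCTC, was found in the 3′ UTR of 8 of the 8 genes when 1 transcript of each was read from GENCODE M21 (GRCm38), on the transcript strand. Over 20930 mouse genes with a UTR, 8.81% held at least 1 such match. Every member except Sall4 was listed as a let-7 target, so matches in them follow in part from the choice of genes. The comparison with other UTRs is therefore a description and no test. The members' UTRs are long, from 1697 bases in Sall4 to 6337 in Igf2bp1, and UTRs of like length (0.8 to 1.25 times) held a match in 11.2% (Sall4) to 34.2% (Igf2bp1) of cases. There were 19 matches in all, and each gene had at least 1 that was followed by A, a base known to strengthen repression by microRNAs. That site is shown for each gene, the first where there were several, with the match in capitals.
Lin28a: tggagtgcacagcctgttgaaCTACCTCa
Lin28b: cccttcacccgggcgggaagtCTACCTCa
Sall4: gatgtgagggctttaatttatCTACCTCa
Igf2bp1: ggcagtgctgtgcgaagtaaaCTACCTCa
Igf2bp2: agaaaaacacacaaataaaagCTACCTCa
Igf2bp3: taaacgtgcatttttactcaaCTACCTCa
Hmga2: gggggcgccgacattcaatttCTACCTCa
Prtg: cctaagccctctgctgaatagCTACCTCa
Igf2bp1, Hmga2 and Lin28b had 4 matches each, Lin28a and Prtg 2 each, and Sall4, Igf2bp2 and Igf2bp3 1 each. As many as 4 matches were held by 0.332%, 0.126% and 0.299% of UTRs as long as those of Igf2bp1, Hmga2 and Lin28b. For the 2 matches of Lin28a and Prtg the shares were 2.11% and 5.3%. For the 1 match of Sall4, Igf2bp2 and Igf2bp3 they were 11.2%, 11.8% and 13.2%. Mature let-7 was not measured in these libraries of mRNA, and a match is a description of the sequence, not a site shown to be used.

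**Figure D1:**
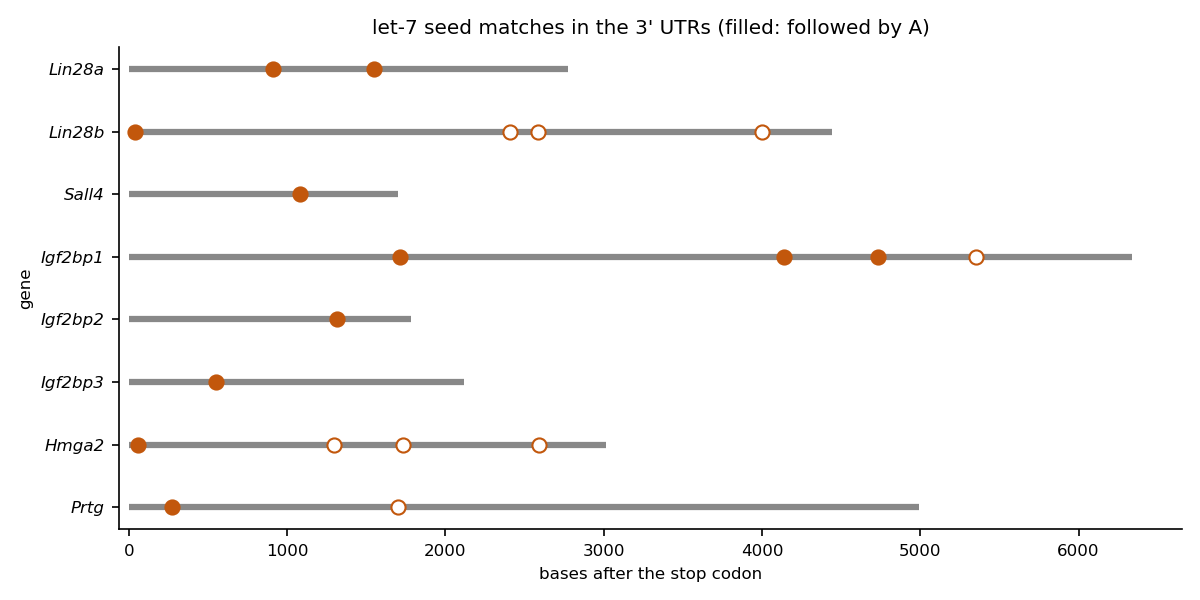
Positions of the let-7 seed matches (circles) along the 3′ UTR (grey bar) of each of the 8 genes, in bases after the stop codon. Filled circles are matches followed by A. Igf2bp1, Hmga2 and Lin28b carry 4 matches each, and the first match of Lin28b and of Hmga2 lies within 100 bases of the stop codon.

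Counts in genes ranged from 20071567 to 45914262 per library. Levels are given as CPM, counts scaled to the library's total after TMM adjustment, on which 3 counts correspond to 0.0589 to 0.138 CPM. All 12 markers of extraembryonic endoderm had counts in each XEN and iXEN group, with a summed level from 12477 to 130790 CPM against 7746 to 8258 CPM in MEF, where Col4a1, Sparc and other matrix genes of the list are also expressed. XEN 7 had the lowest sums, 12477 CPM in ESC and 19238 CPM in XEN medium, and Sox7 there was at 0.470 and 0.805 CPM, against 0.387 to 0.560 CPM in MEF and at least 40.7 CPM in every remaining library outside MEF. Col4a1 was at 6.10 CPM in XEN XEN medium 1. Without XEN 7 the members called against MEF were the same, except that Igf2bp2 was also called in XEN medium. The list of 11 fibroblast markers summed to 37373 to 52786 CPM in MEF and, outside MEF, stood highest in 3 libraries: XEN ESC medium 1 at 7774 CPM, iXEN XEN medium 2 at 2383 CPM and iXEN XEN medium 9 at 1034 CPM. The other 11 libraries were at 0.532 to 352 CPM, the latter in XEN ESC medium 2, which had 137 CPM of the collagen Col1a1. Pluripotency markers summed to 35.8 to 173 CPM in the XEN and iXEN libraries, against 4.48 to 7.22 CPM in MEF. Tfcp2l1, at 8.34 to 160.9 CPM, gave much of that sum outside MEF except in iXEN XEN medium 9. There Pou5f1 and Sox2 were highest, at 58.4 and 48.2 CPM. Zfp42 was at 0.496 to 25.7 CPM outside MEF, against 0 to 0.188 CPM in MEF, while Fgf4 and Tdgf1 were at or under 0.0918 CPM. Results of members and total counts of genes called that move without the 3 libraries highest in fibroblast markers are given with and without them. That line was drawn after the values were seen. Counts and genes of the other lists below were not recomputed without these libraries.

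Lin28a, Sall4 and Igf2bp1 were higher in all 14 XEN and iXEN libraries than in any MEF library. Sall4 and Igf2bp1 passed the test against MEF in all 4 groups, Sall4 with folds of 342 to 839 and Igf2bp1 with folds of 6.15 to 8.25 between group means. Lin28a passed in both groups in ESC medium. Of all genes tested, 54.6% (iXEN in ESC medium), 53.3% (XEN in ESC medium), 51.3% (iXEN in XEN medium) and 63.4% (XEN in XEN medium) likewise did not overlap with MEF in 1 direction or the other. Hmga2 went the other way and was below every MEF library in 12 of the 14. Igf2bp2 and Igf2bp3 were already abundant in MEF.

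**Figure D2:**
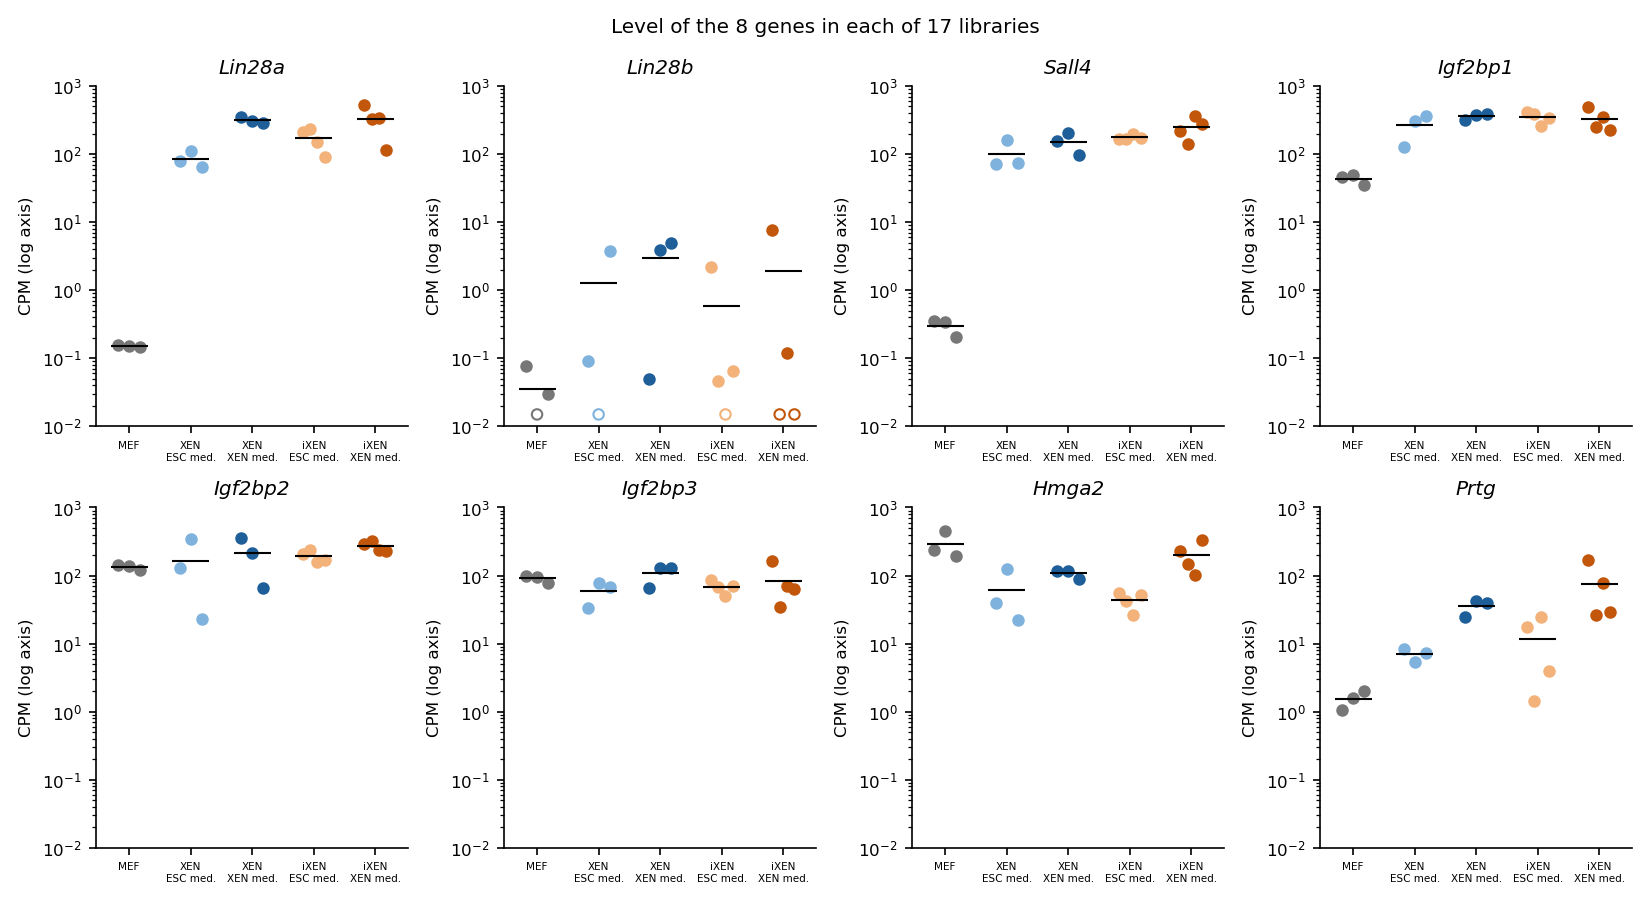
CPM (log axis) of each of the 8 genes in each of the 17 libraries, by group (3 MEF, 3 and 3 XEN, 4 and 4 iXEN); bars are group means and open points at the bottom edge are libraries with 0 counts. Lin28a and Sall4 sit near 0.1 to 0.3 CPM in MEF and between 64.7 and 519.9 CPM elsewhere, while Lin28b is above 1 CPM in 5 libraries only.

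In counts of members, with edgeR's quasi-likelihood test and Benjamini-Hochberg adjustment over all genes at 0.05, iXEN cells in ESC medium had 5 higher and 1 lower of 7 members tested (Lin28b was below the expression filter), where 46.7% of all 14352 genes tested were called. XEN cells in ESC medium had 4 higher and 0 lower of 7, against 25% of all genes. In both groups the 7 include Lin28a and Prtg, whose ESC-medium libraries entered their choice. Of the members other than Lin28a and Prtg, 3 of 5 were higher in iXEN cells in XEN medium (32.6% of all genes called), and 2 were higher and 1 lower of 5 in XEN cells in XEN medium (47.5%). The share of all genes called as higher was 20.8%, 11.4%, 17.7% and 23%, and as lower 25.9%, 13.7%, 14.9% and 24.5%, in the same order. The 4 comparisons share the same 3 MEF libraries and are not independent of each other. Since each library is a bulk culture, more cells that express a gene and more RNA of it per cell cannot be told apart.

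**Figure D3:**
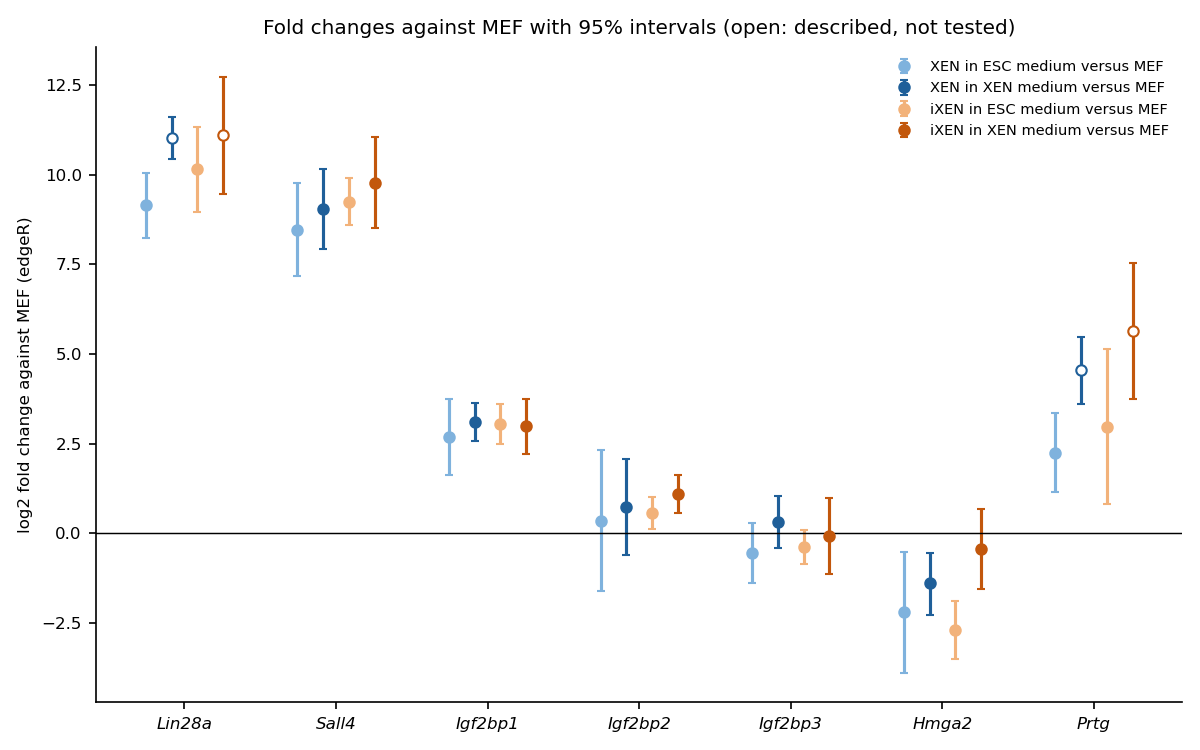
log2 fold change against MEF of 7 genes in the 4 XEN and iXEN groups, from edgeR with 95% intervals (n = 3 against 3 or 4 libraries); open points are Lin28a and Prtg in XEN medium, which are described and not tested. Lin28a and Sall4 lie above 8, Igf2bp1 near 3, Igf2bp2 between 0.35 and 1.10, Igf2bp3 between -0.55 and 0.30, and Hmga2 between -2.70 and -0.45.

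Lin28a, the LIN28 protein gene of pluripotent cells, was at 0.155, 0.1505 and 0.147 CPM in MEF 1 to 3, from 13 counts in all. In ESC medium it was at 78.1, 109.8 and 64.7 CPM in XEN 1, 2 and 7 and at 209.5, 236.9, 151 and 90.2 CPM in iXEN 1, 2, 6 and 9. No library of either group came near the MEF level, and the ranges of XEN and iXEN cells overlapped. The log2 fold change was 9.14 (SE 0.38, adjusted p = 0.000996, edgeR) for XEN and 10.15 (SE 0.52, adjusted p = 2.59e-06, edgeR) for iXEN cells. These ESC-medium libraries also entered the choice of the gene. The values in MEF are close to the count floor, so the folds of 558 and 1139 between group means rest on few counts in MEF. In XEN medium the gene reached 350.3, 303 and 282 CPM in XEN cells and 519.9, 324, 344 and 116 CPM in iXEN cells. XEN medium was thus above ESC medium in each XEN library, while iXEN 9 in XEN medium stayed inside the range of iXEN cells in ESC medium.

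Lin28b, the paralog with the same action on let-7, was patchy. It had 3 counts in MEF over 3 libraries, 0 counts in 5 of all 17 libraries and at least 50 counts in 5: XEN 7 in ESC medium (3.78 CPM), XEN 2 and XEN 7 in XEN medium (3.91 and 4.99 CPM), iXEN 1 in ESC medium (2.23 CPM) and iXEN 1 in XEN medium (7.60 CPM). All others were at or under 0.1203 CPM. XEN 7 and iXEN 1 were thus high in both media and XEN 2 only in XEN medium. Pooled counts gave ratios to MEF of 51.3 (95% interval 17.2 to 252) for XEN in ESC medium, 89.4 (30.4 to 435) for XEN in XEN medium, 13.8 (4.48 to 68.7) for iXEN in ESC medium and 43.6 (14.7 to 213) for iXEN in XEN medium. These intervals cover counting error only, and within each group 1 or 2 libraries supplied nearly all counts. Per kilobase of transcript, Lin28b was under 0.56 CPM in every group mean and Lin28a between 24.02 and 93.0 CPM in the XEN and iXEN groups.

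Around LIN28, 15 other genes of let-7 processing and LIN28 function were tested. In iXEN cells in ESC medium 4 were higher and 0 lower, in XEN cells in ESC medium 1 and 0, in iXEN cells in XEN medium 2 and 1, and in XEN cells in XEN medium 3 and 1. Of all genes tested, 46.7%, 25%, 32.6% and 47.5% were called in either direction, in the same order. Medians of the list were -0.26 to 0.31 on the log2 scale, beside -0.03 to 0.06 for all genes. Trim71, a ubiquitin ligase and RNA binder that is itself a let-7 target, rose from 0.790 ± 0.364 CPM (SD, n = 3) in MEF to 19.1 ± 11.5 CPM (n = 4) in iXEN cells in ESC medium (log2 fold change 4.63, adjusted p = 0.00146, edgeR). It was also higher in XEN medium, by 4.47 in XEN and 4.60 in iXEN cells on the log2 scale, while in XEN cells in ESC medium 1 library of 3 was at 38.8 CPM and the others near 1 CPM. Tarbp2, a partner of Dicer, was the only gene of this list that was higher in all 4 groups, by 0.97 to 1.37. Dicer1, Drosha and Dgcr8 passed the test in none of them.

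Of the let-7 genes only the host transcript of let-7b and let-7c-2, Mirlet7bhg, had enough counts to test, and it fell. It had 19, 18 and 41 counts in MEF 1 to 3 and 0 in every iXEN library in ESC medium, so the level in MEF was at least 35.9-fold higher, taking 3 counts over the group as the floor. It had 3 counts in XEN cells in ESC medium, all in library 1, and 1 count in XEN cells in XEN medium, which gave ratios of MEF to XEN of 24.8 (95% interval 8.19 to 123) and 116 (20.2 to 4629), from pooled counts and with counting error only. edgeR's adjusted p was 0.00107 for iXEN in ESC medium, 0.0435 for XEN in ESC medium and 0.00224 for XEN in XEN medium. In iXEN cells in XEN medium it had 16 counts and did not pass. Those 16 lay in libraries 2 and 9, which with XEN ESC medium 1 had the highest fibroblast sums outside MEF. XEN ESC medium 2, the next highest, had 0 counts, and the part of fibroblast-like RNA was not tested. The loci of single let-7 hairpins had at most 75 counts over all 17 libraries, in this preparation of long mRNA.

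Sall4 was at 0.348, 0.339 and 0.206 CPM in MEF 1 to 3. In ESC medium it was at 71.7, 159 and 74.1 CPM in XEN 1, 2 and 7 and at 169, 167, 199 and 171 CPM in iXEN 1, 2, 6 and 9. In XEN medium the values were 154, 207 and 96.7 CPM for XEN and 222, 143, 357 and 278 CPM for iXEN. The 4 iXEN cultures in ESC medium stood close together, whereas the XEN groups and iXEN cells in XEN medium spread over more than 2-fold. log2 fold changes against MEF were 8.47 (SE 0.54) and 9.05 (SE 0.46) for XEN cells in ESC and XEN medium, and 9.25 (SE 0.29) and 9.78 (SE 0.54) for iXEN cells, with adjusted p from 4.92e-07 to 0.0026 (edgeR).

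SALL4 works with the NuRD chromatin-remodelling complex and with other SALL proteins. In that list of 16 genes, Sall1 was higher in all 4 groups, from 4.08 ± 1.38 CPM in MEF to between 75.0 and 157 CPM in the group means (log2 fold changes of 4.25 to 5.30). Sall3 was higher in 2 groups, iXEN in ESC medium and XEN in XEN medium. Chd3, a NuRD helicase, fell in all 4 groups, with log2 fold changes of -2.31 to -2.82, from 453 ± 53.8 CPM in MEF. The list as a whole had 1 to 4 genes higher and 1 or 2 lower in each group, with medians of -0.15 to 0.14. Of all genes, 11.4% to 23% were called higher and 13.7% to 25.9% lower. The endoderm regulators Gata4, Gata6, Sox7 and Sox17, which SALL4 is known to bind in mouse XEN cells, were higher in 4 of 4 groups each. Sox7 in XEN 7 was the exception among libraries, at 0.470 and 0.805 CPM in ESC and XEN medium, near the MEF level, and the XEN group values were 82.6 ± 109 and 147 ± 137 CPM. Gata4 rose from 1.22 ± 0.259 CPM in MEF to 559 to 1071 CPM, and Sox17 from 0.207 ± 0.131 CPM to 187 to 308 CPM in group means. Gata4, Gata6, Sox7 and Sox17 also define the cell type, so they stand in the marker list as well.

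Igf2bp1, which stabilises bound mRNAs and guides their transport, was at 46.1, 48.7 and 35.3 CPM in MEF 1 to 3. It was at 129, 303 and 368 CPM in XEN 1, 2 and 7 in ESC medium and at 314, 369 and 391 CPM in XEN medium. iXEN 1, 2, 6 and 9 had 415, 392.1, 257 and 335 CPM in ESC medium and 486, 247, 355 and 223 CPM in XEN medium. XEN 1 in ESC medium, the library with the highest fibroblast sum outside MEF, was the lowest of the 14 and was still above every MEF value. log2 fold changes were 2.69 (SE 0.44, adjusted p = 0.0115) and 3.09 (SE 0.22, adjusted p = 0.00034) for XEN in ESC and XEN medium, and 3.05 (SE 0.24, adjusted p = 2.72e-05) and 2.98 (SE 0.33, adjusted p = 0.00186) for iXEN, all from edgeR. For XEN in ESC medium the adjusted p rose to between 0.0576 and 0.0636 when any 1 of the 3 MEF libraries was left out, with log2 fold changes of 2.55 to 2.85.

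Igf2bp2 and Igf2bp3, the paralogs with a similar set of RNA-binding domains, differed from Igf2bp1. Igf2bp2 was at 145, 136 and 119 CPM in MEF and varied 15.7-fold over the XEN and iXEN libraries. It was at 129, 341 and 23.1 CPM in XEN 1, 2 and 7 in ESC medium and at 362, 217 and 66.5 CPM in XEN medium, so that XEN 7 was the lowest of its group in both media and the only number below MEF. In iXEN cells it was at 205, 239, 157 and 169 CPM in ESC medium and at 288, 322, 235 and 233 CPM in XEN medium, all above MEF. The difference from MEF passed the test in iXEN cells, with log2 fold changes of 0.56 (SE 0.20, adjusted p = 0.0439) in ESC and 1.10 (SE 0.23, adjusted p = 0.0123) in XEN medium (edgeR). The first of these 2 calls was lost with RLE size factors (adjusted p = 0.0569), without an expression filter (0.0512), in a fit over all 17 libraries (0.545) and when any MEF library, iXEN 1 or iXEN 2 was left out (0.0772 to 0.162). The second was lost in the fit over all 17 libraries (0.197) and without any 1 MEF library (0.0553 to 0.0729).

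XEN cells did not pass for Igf2bp2, with log2 differences of 0.35 (95% interval -1.61 to 2.31) in ESC and 0.74 (-0.61 to 2.08) in XEN medium. Without XEN 7 the latter was 1.17 (adjusted p = 0.00854, edgeR). Igf2bp3 was at 98.0, 96.2 and 78.3 CPM in MEF, at 33.2, 77.2 and 67.4 CPM in XEN 1, 2 and 7 in ESC medium and at 65.3, 129 and 130.4 CPM in XEN medium. In iXEN 1, 2, 6 and 9 it was at 85.0, 66.9, 50.1 and 70.6 CPM in ESC medium and at 163, 34.1, 70.7 and 62.8 CPM in XEN medium. The values of XEN cells in ESC medium were all below the MEF range, those of the other groups overlapped it, and the group means in the other cells lay between 59.3 and 108 CPM. None of its 4 differences from MEF passed, with values from -0.55 to 0.30 on the log2 scale and 95% intervals that together spanned -1.38 to 1.03. Without XEN 1 in XEN medium, the difference of XEN cells in that medium was 0.58 (adjusted p = 0.0424, edgeR).

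Igf2 and H19, a pair of imprinted transcripts bound by the IGF2BP proteins, which are named for Igf2 mRNA, were low in the same libraries. Igf2 was at 8930 ± 995 CPM in MEF (SD, n = 3) and at 2.74 ± 2.50, 1.80 ± 3.02, 10.7 ± 13.0 and 1.81 ± 3.44 CPM in XEN in ESC and XEN medium and iXEN in ESC and XEN medium. H19 went from 9636 ± 890 CPM to between 8.88 and 83.2 CPM in the group means. Both fell in all 4 groups, with log2 fold changes of -9.68 to -12.24 for Igf2 and -6.83 to -9.96 for H19, with adjusted p of 0.000116 to 0.0111 (edgeR). In XEN ESC medium 1, the library with the highest fibroblast sum outside MEF and with 2403 CPM of the fibroblast collagen Col1a1, Igf2 was at 4.96 CPM. Of 16 or 17 tested partners and oncofetal genes, 2 to 5 were higher and 2 to 7 lower in each group. The shares of all genes were 11.4% to 23% higher and 13.7% to 25.9% lower. Dnmt3b, the de novo DNA methyltransferase, was higher in all 4 by 3.12 to 4.64. Afp, an albumin-like protein of the yolk sac, was higher in all 4 by 4.58 to 9.90, from 0.0356 CPM in MEF. It was at 35.4 ± 59.0 and 8.14 ± 11.1 CPM in XEN cells in ESC and XEN medium. In iXEN cells it was at 6.92 ± 6.12 and 0.891 ± 0.414 CPM. The SDs in XEN cells exceed the means, and the MEF level is below the count floor, so these folds rest on few counts.

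Hmga2, an architectural chromatin protein and a classical let-7 target, was at 236, 447 and 197 CPM in MEF 1 to 3. In ESC medium it was at 39.1, 123 and 22.2 CPM in XEN 1, 2 and 7 and at 55.1, 42.5, 26.2 and 52.4 CPM in iXEN 1, 2, 6 and 9, with all 7 libraries below MEF. The fall passed in iXEN cells, by 2.70 on the log2 scale (SE 0.36, adjusted p = 0.000406, edgeR), and missed in XEN cells, where the difference was -2.21 (95% interval -3.89 to -0.52, adjusted p = 0.0626, edgeR). Without XEN 2 that difference was -3.05 (adjusted p = 0.0151, edgeR), and DESeq2, which called 40.1% of all genes, gave it an adjusted p of 0.00779. In XEN medium Hmga2 was at 118, 117 and 88.5 CPM in XEN cells, with a difference from MEF of -1.40 (SE 0.36, adjusted p = 0.0205, edgeR), a call that was lost in the fit over all 17 libraries (adjusted p = 0.0702). The iXEN cells in XEN medium had 231, 147, 102 and 331 CPM, inside and below the MEF range, with a difference of -0.45 (95% interval -1.57 to 0.67, adjusted p = 0.487, edgeR).

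Reads from the pseudogene Hmga2-ps1 can resemble those of Hmga2. It was at 3.29, 5.16 and 3.92 CPM in MEF, at 6.84 CPM in XEN ESC medium 1, at 9.25 and 1.59 CPM in iXEN XEN medium 2 and 9 and at or under 0.269 CPM in the other 11 libraries. The 3 libraries outside MEF above 1 CPM are those with the highest fibroblast sums, while XEN ESC medium 2, the next highest, was at 0.269 CPM. Without these 3 libraries the Hmga2 difference from MEF was -1.96 (adjusted p = 0.14, edgeR) for XEN in ESC medium and -0.80 (adjusted p = 0.219, edgeR) for iXEN in XEN medium, so neither passed with or without them.

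Hmga2 and the members fit no single direction, nor did 29 other genes listed as let-7 targets. Of 26 or 27 tested, 9 were higher and 8 lower in iXEN cells in ESC medium, 6 and 4 in XEN cells in ESC medium, 8 and 3 in iXEN cells in XEN medium and 10 and 5 in XEN cells in XEN medium. Of all genes tested, 20.8%, 11.4%, 17.7% and 23% were called higher and 25.9%, 13.7%, 14.9% and 24.5% lower, in the same order. Median log2 fold changes were 0.24, -0.04, 0.29 and 0.31, beside 0.03, -0.03, 0.06 and 0.02 over all genes tested. Several that rose encode transcription factors. Mycn went from 1.28 ± 0.813 CPM in MEF to 25.9 ± 13.97 CPM in XEN and 25.9 ± 9.82 CPM in iXEN cells in ESC medium. In XEN medium it stood at 102 ± 51.5 and 90.7 ± 65.8 CPM, and its log2 fold changes were 4.38 to 6.36. Nr6a1, the germ cell nuclear factor, was higher in all 4 groups by 2.42 to 3.71, and Arid3b by 2.71 to 3.80. Among those that fell, Plag1, a growth-promoting zinc-finger factor, was lower in all 4, with log2 fold changes of -3.07 to -5.09. The cell cycle genes Ccnd1 and Cdk6 were lower in iXEN cells in ESC medium, with log2 fold changes of -5.79 and -5.11, from 174 ± 48.1 and 4.25 ± 1.04 CPM in MEF. Neither was called in the other groups. There Cdk6 means were 0.431 to 0.689 CPM, and Ccnd1 ranged from 41.2 ± 60.9 CPM (XEN in XEN medium) to 232 ± 379 CPM (iXEN in XEN medium). Apart from the 8 members, 20 of the 29 listed targets held a seed match in the 3′ UTR that was read. Nr6a1 and Arid3b were among them, while Mycn, Plag1, Ccnd1 and Cdk6 had 0 matches.

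**Figure D4:**
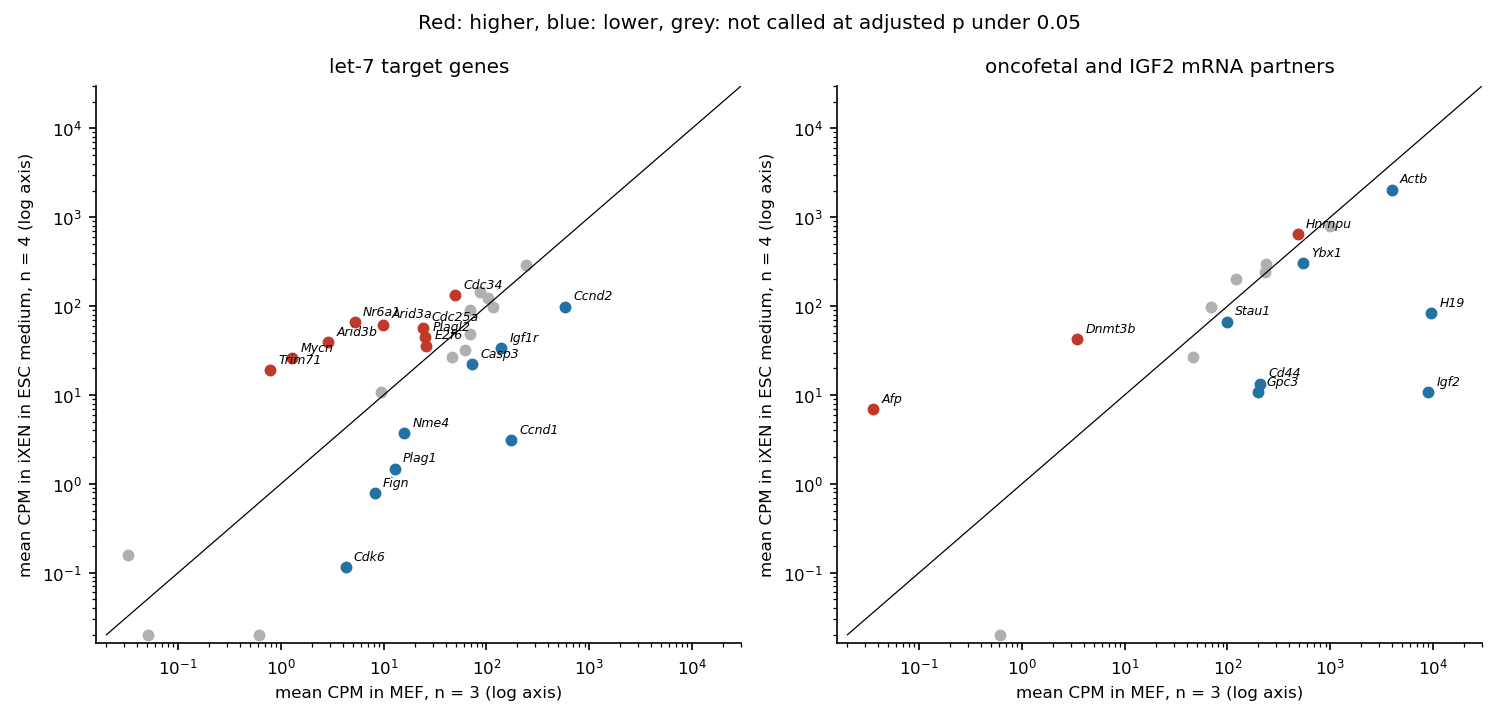
Mean CPM in MEF (n = 3, log axis) against mean CPM in iXEN cells in ESC medium (n = 4, log axis) of listed let-7 targets other than the 8 genes (left) and of IGF2BP partners and oncofetal genes (right); means under 0.02 CPM are drawn at 0.02 and the line marks equality. Colours give edgeR calls against MEF: 9 let-7 targets lie above and 8 below, and Igf2 and H19 lie far below the line.

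Prtg was low in MEF at 1.05, 1.62 and 2.003 CPM. It was at 8.49, 5.42 and 7.38 CPM in XEN 1, 2 and 7 in ESC medium, all above MEF, and at 17.8, 1.44, 24.3 and 4.02 CPM in iXEN 1, 2, 6 and 9, where number 2 stayed in the MEF range. Both ESC-medium differences passed, with log2 fold changes of 2.25 (SE 0.46, adjusted p = 0.0191, edgeR) in XEN and 2.97 (SE 0.95, adjusted p = 0.0313, edgeR) in iXEN cells. Both were lost when any 1 MEF library was left out (adjusted p = 0.0784 to 0.107), the first also in the fit over all 17 libraries (0.0703), and the second also without iXEN 1 (0.0664) or iXEN 6 (0.0507). The ESC-medium libraries also entered the choice of Prtg. In XEN medium the level was 24.5, 42.2 and 39.0 CPM in XEN and 171, 26.7, 78.3 and 29.3 CPM in iXEN cells. Several relatives and ligands in its list fell against MEF. Of 8 tested genes in the list, 7 fell and 1 rose in iXEN cells in ESC medium, 2 fell and 1 rose in XEN cells in ESC medium, 4 and 1 in iXEN cells in XEN medium, and 6 and 1 in XEN cells in XEN medium, beside 25.9%, 13.7%, 14.9% and 24.5% of all genes called lower. Igdcc4, a related receptor, fell in all 4, with log2 fold changes of -4.23 to -5.72, from 87.8 ± 22.4 CPM in MEF. The netrin gene Ntn1 and the guidance molecule gene Rgma had log2 fold changes of -6.41 and -7.73 in iXEN cells in ESC medium. The gene that rose was Dnajb11, an endoplasmic reticulum chaperone reported as a protogenin ligand, by 1.53 to 2.26.

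The change of medium is the contrast by which Lin28a and Prtg were chosen. Mean Lin28a was 84.2 ± 23.2 CPM in ESC and 312 ± 34.9 CPM in XEN medium in XEN cells (SD, n = 3 each), 3.70-fold higher, and 172 ± 65.2 and 326 ± 165 CPM in iXEN cells (n = 4 each), 1.90-fold higher. Mean Prtg was 7.10 ± 1.56 and 35.2 ± 9.40 CPM in XEN cells, 4.96-fold higher, and 11.9 ± 10.9 and 76.3 ± 67.3 CPM in iXEN cells, 6.42-fold higher. Groups did not overlap for Lin28a in XEN cells or for Prtg in either cell type, where 12.5% of genes in XEN cells and 12% in iXEN cells did not overlap in either direction. Within XEN numbers, Lin28a was 4.49-, 2.76- and 4.37-fold higher and Prtg 2.89-, 7.78- and 5.28-fold higher in XEN medium for 1, 2 and 7.

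**Figure D5:**
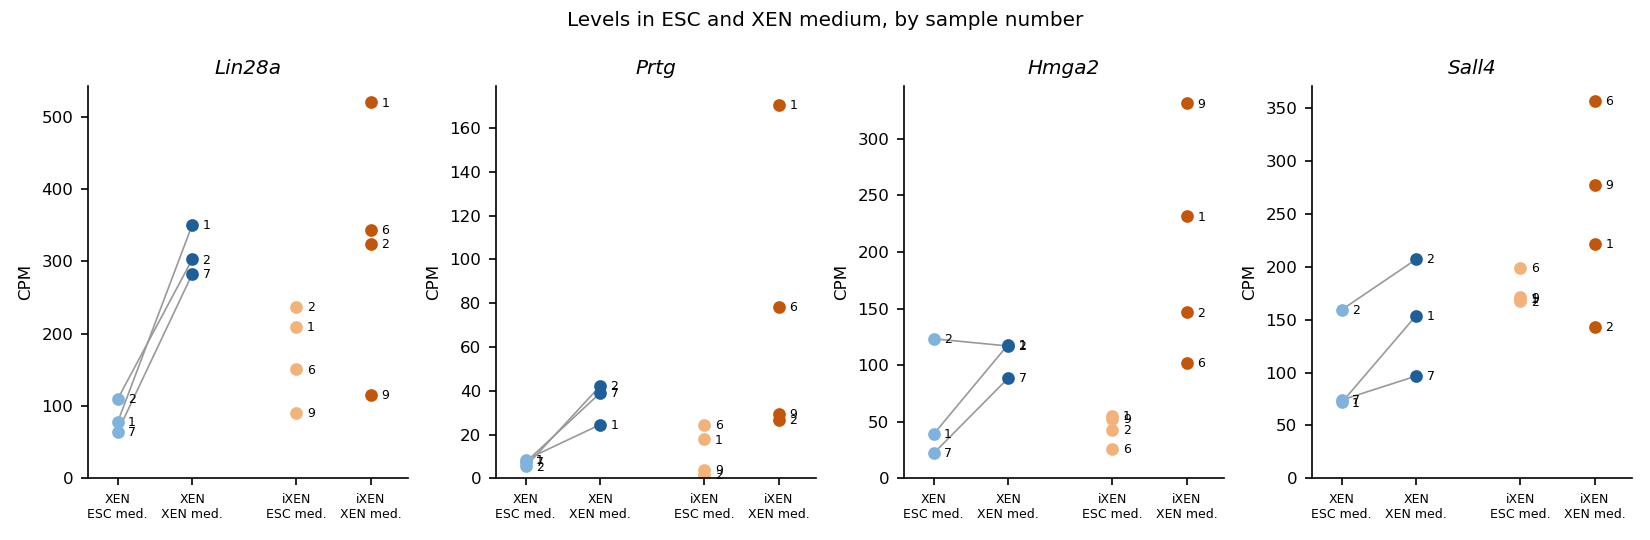
CPM of Lin28a, Prtg, Hmga2 and Sall4 in XEN and iXEN cells in ESC and XEN medium, 1 point per library labelled with its sample number; lines join XEN libraries of the same number. Lin28a rises in all 3 XEN numbers, and all 4 iXEN libraries in XEN medium lie above those in ESC medium for Hmga2 and Prtg.

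The other members gave the test of medium. With edgeR 0 of 6 passed in XEN cells and 0 of 5 in iXEN cells, where 0 of 13241 and 0 of 12920 genes passed in all. At an unadjusted p under 0.05 there were 746 and 3018 genes, and DESeq2 called 63 and 1536, respectively. Hmga2 came nearest in iXEN cells, at 44.0 ± 13.1 CPM in ESC and 203 ± 101 CPM in XEN medium with no overlap, a log2 difference of 2.23 (95% interval 1.30 to 3.17, adjusted p = 0.0581, edgeR). It passed with DESeq2 (adjusted p = 4.75e-05, where DESeq2 called 12.4% of all genes), in the fit over all 17 libraries (0.0449) and without iXEN ESC medium 6 (0.0495) or iXEN XEN medium 2 (0.0423). In XEN cells the Hmga2 difference was 0.79 (95% interval -0.66 to 2.24), and the difference between the cell types was 1.43 (95% interval -0.16 to 3.02, adjusted p = 0.375, edgeR). Without the 3 libraries highest in fibroblast markers, the medium difference of Hmga2 in iXEN cells was 1.89 (adjusted p = 0.089, edgeR). Sall4 differed by 0.56 (-0.49 to 1.61) in XEN and 0.52 (-0.14 to 1.18) in iXEN cells. Igf2bp1, Igf2bp2 and Igf2bp3 differed by 0.39 (-0.61 to 1.40), 0.37 (-1.90 to 2.64) and 0.84 (-0.18 to 1.85) in XEN cells and by -0.08 (-0.75 to 0.60), 0.51 (-0.02 to 1.04) and 0.29 (-0.67 to 1.26) in iXEN cells. Of the gene lists above, none had a gene called for medium by edgeR.

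iXEN and XEN cells were set against each other in the same medium. In ESC medium 0 of 7 members passed, and 0 of 12944 genes with edgeR, 1770 at an unadjusted p under 0.05 and 393 with DESeq2. Lin28a was 2.04-fold higher in iXEN cells (95% interval of the log2 difference 0.14 to 1.87, adjusted p = 0.346, edgeR) and Sall4 1.74-fold higher (log2 0.78, 0.03 to 1.53, adjusted p = 0.362, edgeR). Sall4 was higher in all 4 iXEN libraries than in any XEN library, where 9.93% of all genes did not overlap in either direction, and Lin28a overlapped. Igf2bp1, Igf2bp2, Igf2bp3, Hmga2 and Prtg differed by 0.36 (-0.52 to 1.25), 0.22 (-1.38 to 1.82), 0.18 (-0.60 to 0.96), -0.49 (-1.76 to 0.77) and 0.72 (-1.30 to 2.73). In XEN medium 0 of 6 members and 0 of 13263 genes passed with edgeR, with 544 genes at an unadjusted p under 0.05 and 75 with DESeq2. Hmga2 was 203 ± 101 CPM in iXEN and 108 ± 16.8 CPM in XEN cells, a difference of 0.93 (-0.06 to 1.92, adjusted p = 0.985, edgeR). Lin28a, described only, was at nearly the same mean in both, 326 and 312 CPM.

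Per kilobase of transcript, which allows genes to be set beside each other, Hmga2 was the most abundant of the 8 in MEF at 77.0 ± 35.3 CPM per kb, followed by Igf2bp2 at 34.2 ± 3.42, Igf2bp3 at 20.9 ± 2.50 and Igf2bp1 at 5.18 ± 0.849 CPM per kb. The other 4 genes were under 0.2 CPM per kb in MEF. In iXEN cells in ESC medium Igf2bp2, Lin28a and Igf2bp1 came first, at 49.3 ± 9.51, 49.0 ± 18.6 and 41.8 ± 8.40 CPM per kb, which lie within each other's SD, and Hmga2 had dropped to 11.6 ± 3.43. In XEN medium, for whose rise it was chosen, Lin28a had the highest mean, at 89.0 ± 9.95 CPM per kb in XEN and 93.0 ± 47.2 in iXEN cells. In iXEN cells Igf2bp2 at 69.2 ± 11.1, Hmga2 at 53.2 ± 26.5 and Sall4 at 49.2 ± 17.8 CPM per kb lay within its SD. Prtg and Lin28b came last in every XEN and iXEN group. These levels rest on 1 transcript per gene and on counts over the whole gene.

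Over the 14 XEN and iXEN libraries, 23 of 28 pairs of members were positively correlated in log2 CPM, as a description of libraries that share media and sample numbers. Igf2bp1 with Igf2bp3 gave the highest r at 0.80, Lin28b with Igf2bp3 gave 0.75 and Lin28a with Prtg 0.64, where both had been chosen for the same rise in XEN medium in these libraries, while Igf2bp1 with Igf2bp2 gave -0.03. The genes of 15267 whose pattern was most like a member's were Hnrnpr (r = 0.917), Depdc1a (0.901) and Tmem165 (0.888) for Lin28a and Atg5 (0.946), E2f5 (0.921) and Hdac2 (0.913) for Prtg. Since Lin28a and Prtg were chosen for their rise in XEN medium in these libraries, their most similar genes follow in part from that choice. E2f5 was at 10.3 ± 3.42 and 21.8 ± 3.70 CPM in XEN cells and at 10.7 ± 4.48 and 24.8 ± 13.9 CPM in iXEN cells, in ESC and XEN medium. For Igf2bp1 they were E2f7 (0.952), Xpo1 (0.930) and Brca1 (0.924), and Xpo1, the nuclear export receptor, was also among those of Igf2bp3 (0.912), after Shmt1 (0.925) and Ipo11 (0.917). For Igf2bp2 they were Arhgap6 (0.966), Zfp512 (0.955) and Lipg (0.942), and Arhgap6 was at 0.365 CPM in XEN 7 in ESC medium, where Igf2bp2 was at its lowest. Acer2 (0.917), Zfp819 (0.886) and Dpy19l1 (0.872) came first for Lin28b, Sall4 and Hmga2. Zfp819 was at 0 to 1.05 CPM, and Lin28b had at least 50 counts in 5 libraries only. The r of Zfp819 with Sall4 and those of Lin28b, also with Igf2bp3, thus rest in part on values near the count floor.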

How the data were processed

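Messenger RNA was prepared with Trizol and the Illumina TruSeq mRNA kit, per the labels' protocols. The authors deposited raw counts of reads for each gene symbol. The submitters' processing notes name HTSeq 0.6.1, TopHat2 2.0.12, Trimmomatic 0.32, FastQC 0.11.3 and build mm9, and neither these nor the labels give the annotation or strand setting. The counter's own lines (20.8% to 33.1% of a file) were left out.

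Counts were tested per comparison of 2 groups with edgeR 4.0.16 in R 4.3.3: filterByExpr (minimum count 10, total 15), TMM scaling, quasi-likelihood test, two-sided, Benjamini-Hochberg adjustment over all genes at 0.05. SEs and 95% intervals come from the same fits. CPM use TMM factors (0.863 to 1.16) over all 17 libraries, and log2 CPM a prior count of 2. DESeq2 1.42.0, other scalings, filters and left-out libraries were tried. The design text calls samples biological replicates; p-values measure only the spread between these libraries. The fits were tested on simulated data.

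Members and gene lists were chosen with earlier results of these data known. From each list up to 4 called genes per comparison, those with the largest fold change, were named, and then followed through the other groups; Dicer1, Drosha, Dgcr8 and the genes of the marker and fibroblast check were named after their values were seen. The 3 most similar genes are by Pearson's r. Same-numbered XEN libraries in both media correlated in their deviations from group means (r = 0.24, 0.377 and 0.635 for 1, 2 and 7). Different XEN numbers gave r from -0.567 to 0.428, the highest for 2 in ESC medium with 1 in XEN medium. Numbers were taken to pair XEN samples, though 0.428 lies above the r of numbers 1 and 2. Sequences are from RefSeq (GRCm38.p6) and GENCODE M21 (GRCm38), matched by symbol; coordinates are not of the build of the counts.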

Additional observations from a re-analysis of the deposited data

Results flagged for a closer look

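Among 16 groups of 4 libraries (8 genes in iXEN cells in either medium), 3 had a library whose gap to its nearest neighbour exceeded Dixon's 95% critical value, taken as a share of the group's range. Chance gives about 1 in 20 for normally spread values. That rate does not hold for Lin28b, whose other libraries lay near the count floor. Lin28a and Prtg in XEN medium are among the groups as a description only. Lin28b was at 2.23 CPM in iXEN ESC medium 1, with the other 3 libraries at 0 to 0.0653 CPM. In XEN medium the same number again stood apart, with 7.60 CPM in iXEN XEN medium 1 and 0 to 0.1203 CPM in the others. Sall4 was at 199 CPM in iXEN ESC medium 6, above the other 3 at 167 to 171 CPM. iXEN XEN medium 1 was also the highest of all 17 libraries for Lin28a, Igf2bp1, Igf2bp3 and Prtg. Of all 17 it also had the largest share of the counter's own lines, 33.1%, and the fewest genes with a count, 15176. Whether these bear on its levels was not tested.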

How the results depend on the processing

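Sall4 against MEF kept its direction and its call under every alternative except the replicate block in iXEN cells in XEN medium. In comparisons of 2 groups, that block kept only libraries whose number occurs in both groups. Against MEF, and between iXEN and XEN cells, it therefore also left libraries out. Changes under the block there cannot be told apart from that loss of libraries. Of the changes of member fold under an alternative, 681 kept direction and call, 31 lost a call, 10 gained one and 22 turned sign, all of the last in differences that had not passed. The causes were not tested.

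Counts of genes called moved most. XEN in ESC medium against MEF went from 3507 to 5480 with DESeq2, to 911 (2 members) with the replicate block, and to between 372 (without MEF 1) and 6056 (without XEN 2; members 2 to 5) when 1 library was left out. iXEN in XEN medium against MEF went from 4708 to 0 (0 members) with the replicate block, which also left libraries out. It went to 7440 without the 3 libraries with fibroblast collagen (chosen after seeing the data) and to 1842 (without MEF 3) to 5663 with 1 library left out. XEN in XEN medium against MEF ranged from 3985 (without MEF 1) to 8965 (without XEN 7), with 3 to 5 members (5 without XEN 1). iXEN against XEN cells in ESC medium gave 5 genes with no expression filter, 393 with DESeq2, 17 with the block and 0 to 49 (without XEN 2) with 1 left out; in XEN medium DESeq2 gave 75. The medium gave 63 genes in XEN cells with DESeq2 and, in iXEN cells, 1536 (1 member) with DESeq2, 330 (1 member) in the fit over all 17 libraries, 1 without the collagen libraries and 0 to 416 (without iXEN ESC medium 6; members 0 to 1) with 1 left out. The interaction gave 466 with DESeq2 and 1 with the block.

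Signs turned as follows, on the log2 scale, as ranges with 1 library left out: against MEF, Igf2bp2 in XEN in ESC medium from -0.58 to 0.92 and Igf2bp3 in iXEN in XEN medium from -0.58 to 0.17; iXEN against XEN in ESC medium, Igf2bp2 -0.29 to 1.30, Igf2bp3 -0.11 to 0.44 and Hmga2 -0.89 to 0.51; in XEN medium, Igf2bp1 -0.36 to 0.02 and Igf2bp2 -0.09 to 0.94; for medium, Igf2bp2 in XEN cells -0.23 to 1.44 and in iXEN cells Igf2bp1 -0.34 to 0.03 and Igf2bp3 -0.27 to 0.53. Without the collagen libraries, Igf2bp3 was 0.38 in iXEN in XEN medium against MEF, and iXEN minus XEN was -0.11 for Igf2bp3 in ESC medium and 0.35, 0.21 and 0.09 for Lin28b, Igf2bp1 and Igf2bp3 in XEN medium; the iXEN medium difference of Igf2bp1 was 0.24. With the replicate block, Igf2bp3 in XEN in XEN medium against MEF was -0.04, Prtg in iXEN against XEN in ESC medium -0.43 and Igf2bp1 in XEN medium 0.05.

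Between MEF, XEN and iXEN the numbers are only shared names, so the block is no pairing there. Same iXEN numbers in both media gave low r, of 0.144, 0.181, 0.122 and -0.0348 for 1, 2, 6 and 9. Different iXEN numbers gave -0.138 to 0.126, so 1 and 2 lay above that range and 6 and 9 did not. iXEN numbers were therefore not taken to pair media. In XEN cells, where numbers were taken to pair media, the block changed no call for medium. The 3 MEF libraries limit every comparison with MEF, and levels near 3 counts, as for Lin28a, Sall4 and Lin28b in MEF, limit the folds.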
